A study of Mus musculus with 33 samples.

Results

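The 63 genes described here are the replication-dependent histone genes of the mouse Hist1, Hist2, Hist3 and Hist4 clusters, measured in 3 sorted immune populations of a pancreatic tumour. They were chosen by name: every entry starting with Hist1h, Hist2h, Hist3h or Hist4h whose mean level was above 0 in at least 1 population. The tables listed 69 such names among 53735 gene names, and 63 met the rule. The members were 6 H1, 16 H2a, 18 H2b, 10 H3 and 13 H4 genes. On GENCODE M21 (build GRCm38), 54 of them lie on chromosome 13 between positions 21715763 and 23934156, 5 on chromosome 3, 3 on chromosome 11 and 1 on chromosome 6. Hist1h2aj is annotated as an unprocessed pseudogene, Hist3h2bb-ps as a processed pseudogene, and the other 61 as protein coding. The 6 names left out were listed at 0 in all 3 populations: Hist1h2aa, Hist2h2aa1, Hist2h2aa2, Hist2h2bb, Hist2h3b and Hist2h3c1. Just inside the rule was Hist2h2ab, the lowest member in every population, with a mean level of 0.914 in monocytes, 0.791 in macrophages and 0.846 in CD8 T cells.

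C57BL/6 mice carried orthotopic KCKO pancreatic tumours, grown from a cell line placed in the tail of the pancreas. Tumours were left unirradiated, received stereotactic body radiotherapy (SBRT, 4 fractions of 6 Gy on days 6 to 9), received microspheres of 2 mg loaded with 0.5 µg of interleukin 12 inside the tumour on day 10 (IL12), or received both (the combination, SBRT+IL12). Empty microspheres served as a control, but the labels do not say which groups received them, and they give no day of harvest and no age of the mice. Inflammatory monocytes (IM) were sorted as CD45+CD11b+Ly6C+Ly6G- cells, tumour-associated macrophages (TAM) as CD45+CD11b+ cells with moderate Ly6C, no Ly6G and F4/80, and CD8 T cells as CD45+CD8+ cells. The 33 libraries formed 12 groups of 3, except for the macrophages, which had 2 unirradiated, 2 SBRT, 3 IL12 and 2 combination libraries. Nothing in the labels says that libraries of a group came from separate mice, so p-values measure only the spread between these libraries, which may be technical.

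Histone proteins pack DNA into nucleosomes: H2A, H2B, H3 and H4 form the core, and H1 binds the linker DNA between cores. The clustered genes are switched on at the start of S phase, when a cell copies its DNA and needs histones to wrap the new strands. Their mRNAs carry no poly(A) tail. They end in a conserved stem-loop that is bound by the stem-loop binding protein Slbp, which drives their processing and translation, and they are destroyed when DNA synthesis stops. A library made by selecting poly(A), as the TruSeq RNA kit used here does, therefore catches only the part of these transcripts that carries a tail, for instance from read-through to a later poly(A) signal. Levels given here are levels of that captured RNA.

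The stem-loop was looked for in the GENCODE M21 transcripts, because it is the feature that sets these mRNAs apart from other mRNAs. A stem-loop was found in the annotated transcripts of 41 of the 63 members, and the other 22 hold none in the annotated sequence. Below are the stem-loops of members that the results turn on, written as DNA from 5′ to 3′, with the 16 bases of stem and loop in capitals and up to 5 bases on each side in lower case.
Hist1h1c: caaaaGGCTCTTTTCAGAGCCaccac
Hist1h2ag: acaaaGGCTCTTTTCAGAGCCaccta
Hist1h2ao: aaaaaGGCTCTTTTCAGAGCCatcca
Hist1h2bj: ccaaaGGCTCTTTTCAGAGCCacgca
Hist1h2bk: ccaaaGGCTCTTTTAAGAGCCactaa
Hist1h3c: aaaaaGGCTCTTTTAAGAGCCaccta
Hist1h4d: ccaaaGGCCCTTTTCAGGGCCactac
Hist1h4m: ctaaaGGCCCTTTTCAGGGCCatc
All 10 H4 stem-loops found began with GGCC, and all 31 found in H1, H2a, H2b and H3 members began with GGCT. The form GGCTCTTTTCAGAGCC was present in 23 members and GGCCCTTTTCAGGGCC in 7, all of them H4. Annotated transcripts ran at least 100 bases past the stem-loop in 21 members, among them 4 H1 genes, and ended within 100 bases of it in 20.

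Most H2a and H2b genes sit head to head and share 1 promoter region. There were 14 such pairs with starts within 500 bases of each other, 13 of them with both genes among the members. The stretches below lie between the RefSeq starts of 3 pairs (build GRCm38.p6, plus strand, 5′ to 3′). They are shown because each holds the promoters of an H2a and an H2b gene whose values are compared below. Capitals mark the CCAAT box, the TATA box (searched as TATAAA) and the octamer (searched as ATTTGCAT), each on either strand.
Hist1h2ao and Hist1h2bq, chr13:21810200-21810366: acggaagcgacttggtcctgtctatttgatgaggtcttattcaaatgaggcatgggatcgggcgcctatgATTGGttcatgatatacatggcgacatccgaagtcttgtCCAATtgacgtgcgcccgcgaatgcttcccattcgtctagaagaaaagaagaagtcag
Hist1h2ag and Hist1h2bj, chr13:22042950-22043197: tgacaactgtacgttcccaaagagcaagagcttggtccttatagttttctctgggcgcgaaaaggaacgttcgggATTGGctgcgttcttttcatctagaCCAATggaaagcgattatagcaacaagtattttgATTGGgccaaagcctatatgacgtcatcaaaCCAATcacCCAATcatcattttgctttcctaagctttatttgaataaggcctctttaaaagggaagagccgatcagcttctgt
Hist1h2ai and Hist1h2bl, chr13:21716184-21716411: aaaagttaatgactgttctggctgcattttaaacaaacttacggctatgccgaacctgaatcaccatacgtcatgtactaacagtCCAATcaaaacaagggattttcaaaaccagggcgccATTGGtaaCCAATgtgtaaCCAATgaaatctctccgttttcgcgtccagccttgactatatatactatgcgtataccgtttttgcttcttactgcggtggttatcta
A RefSeq promoter of 300 bases, from 250 before to 50 after the start, was at hand for 56 members. Searched on both strands, the CCAAT box occurred in all 44 of those of the H1, H2a, H2b and H3 classes and in 3 of 12 H4 promoters, against 37.4% of 32817 mouse promoters. TATAAA occurred in 33 of 56, against 13.6% of all promoters. The octamer ATTTGCAT, the site read by Oct factors, occurred in 6 of 15 H2a and 5 of 15 H2b promoters and in no other member, against 1.74% of all promoters. These matches are descriptions of the letters only. The H4 promoter below, 250 bases before the start of Hist1h4m (chr13:21811496-21811745, plus strand), is one of the 9 H4 promoters without a CCAAT match, with TATAAA in capitals.
Hist1h4m: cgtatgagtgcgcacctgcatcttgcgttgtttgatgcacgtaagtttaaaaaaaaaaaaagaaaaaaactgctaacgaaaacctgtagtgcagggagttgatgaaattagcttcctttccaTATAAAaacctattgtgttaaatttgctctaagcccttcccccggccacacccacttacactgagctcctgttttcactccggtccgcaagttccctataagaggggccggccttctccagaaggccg

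Values come from the authors' deposited tables of a DESeq2 analysis, 1 for each treatment against unirradiated in each population. The level is the mean normalised count over all libraries of a population. A member is called where the deposited adjusted p is below 0.05. Standard errors (SE) are the ones implied by the ratio of fold change to Wald statistic. The log2 fold change is taken as shrunken towards 0 because these SEs are small at low levels, and the shrinkage method is not stated. Values for single libraries were not analysed here, so no spread between libraries can be printed and depth per library is unknown. Group levels called implied were derived from the mean level, the numbers of libraries and the deposited fold changes. Each marker list had its highest sum in the population it names, but monocytes were set apart least clearly. The 7 CD8 T cell markers summed to 219478 in CD8 T cells against 1348 in monocytes and 1332 in macrophages. The 9 macrophage markers summed to 1328600 in macrophages, 336781 in monocytes and 10777 in CD8 T cells. The 7 inflammatory monocyte markers summed to 208901 in monocytes, 105636 in macrophages and 28061 in CD8 T cells. The highest marker level in that list was 62172 in monocytes and 62505 in macrophages. None of the markers in these lists was at 0 in any population. In bulk RNA, fewer cycling cells and less histone RNA per cycling cell cannot be told apart.

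Captured histone RNA was highest in CD8 T cells, and most of it came from H2a genes. Each population was normalised on its own, so levels are set side by side in ppm of the summed level of all genes in that population. The 63 members held 199 ppm in monocytes, 310 in macrophages and 1625 in CD8 T cells. Between CD8 T cells and macrophages 54 of 63 members were higher in the former, and between macrophages and monocytes 61 of 63 were higher in macrophages. H2a genes held 45.8 ppm in monocytes, 85.2 in macrophages and 1133 in CD8 T cells, or 22.9%, 27.5% and 69.7% of the histone total. The other core classes varied less: H2b held 50.0, 114 and 173 ppm, H3 15.5, 34.2 and 107, and H4 26.8, 44.0 and 147 ppm in the same order. H1 genes held 61.4 ppm in monocytes, 31.7 in macrophages and 65.4 in CD8 T cells. Of the monocyte sum, 43.1 ppm came from Hist1h1e alone, a row without a p-value in any monocyte table. Without it the other 5 H1 genes held 18.3, 27.6 and 41.5 ppm, and all 5 were higher in macrophages than in monocytes. Without library values none of these differences was tested. An alternative scale was the median level of 11 histone variant genes listed as replication-independent. It was 3391 in monocytes, 2969 in macrophages and 5029 in CD8 T cells. With it the ratios of CD8 T cells to both other populations shrank in every class, by the same factor for a given pair of populations. The H2b ratio of CD8 T cells to macrophages turned from 1.51 to 0.854, and the H1 ratio of CD8 T cells to monocytes from 1.07 to 0.689. The summed level of these 11 genes was instead lowest in CD8 T cells (172446, 161415 and 133172 in the same order). Scaling to that sum was not run.

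**Figure D1:**
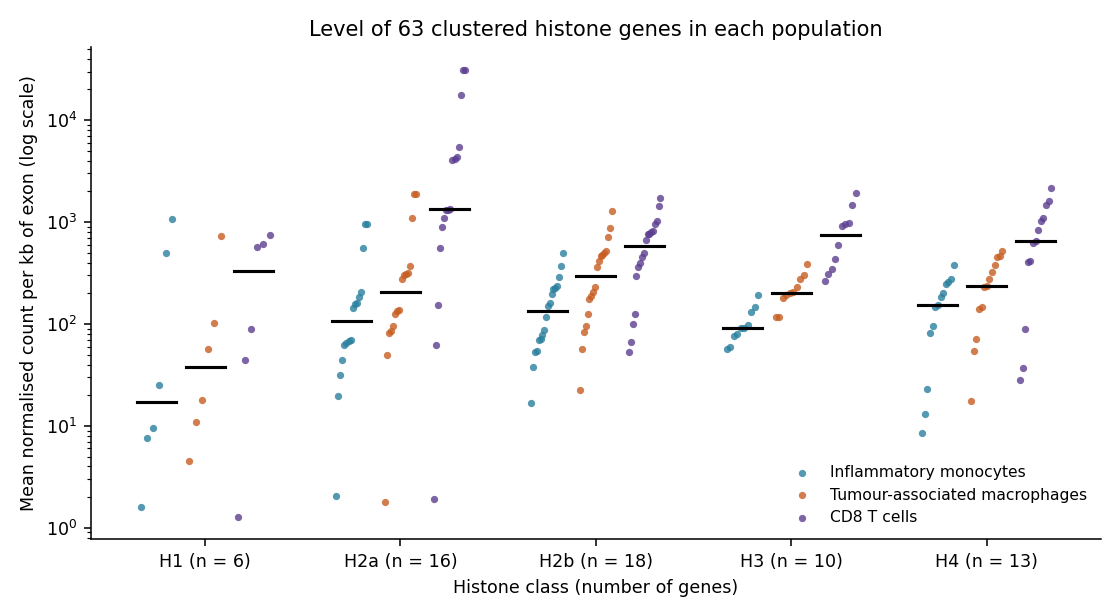
Mean normalised count per kilobase of exon (log scale) of each of 63 histone genes, by class and population; each point is a gene and each black bar the class median. The 3 highest points are Hist1h2ao, Hist1h2ap and Hist1h2ag in CD8 T cells, and the H2a median rises from 107 in monocytes to 1337 in CD8 T cells.

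A few genes carried the totals. Per kilobase of exon, Hist1h2ao and Hist1h2ap led the H2a class in all 3 populations, with 966 and 964 in monocytes, 1895 and 1889 in macrophages, and 31263 and 31164 in CD8 T cells. These 2 genes alone made up 40.3% of the histone level in CD8 T cells. They share 93.5% and 93.1% of their 50-base words, so their nearly equal rows (15006 and 15021 counts) may count the same reads and are not independent. Next in CD8 T cells came Hist1h2ag at 17568 per kilobase. In the H2b class Hist1h2bc (498 and 1278) and Hist1h2bg (367 and 884) led in monocytes and macrophages, and Hist1h2bj (1710) and Hist1h2bk (1427) in CD8 T cells. H3 was led by Hist1h3e (191 and 391) and Hist1h3i (146 and 305) in both myeloid populations, and by Hist1h3i (1947) and Hist1h3h (1468) in CD8 T cells. For H4 the leaders were Hist1h4i (380) and Hist1h4m (278) in monocytes, Hist1h4m (521) and Hist1h4n (466) in macrophages, and Hist1h4d (2142) and Hist1h4m (1620) in CD8 T cells. Of the linker histones, Hist1h1c stood at 499, 729 and 613 per kilobase in monocytes, macrophages and CD8 T cells. Hist1h1e was highest in monocytes at 1068 per kilobase, against 102 in macrophages and 569 in CD8 T cells. Its monocyte row has no p-value in any of the 3 tables; DESeq2 leaves the p out where 1 library holds an extreme count, and Hist1h1e was 1 of 64 monocyte genes above 0 with that mark. Hist1h1b reached 743 per kilobase in CD8 T cells, against 57.2 in macrophages, and the testis gene Hist1h1t stayed at 1.16 to 4.08 counts in all of them.

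Overlap on the genome also bears on these rows. All 16 H2a members overlap another GENCODE gene, against 1 of 6 H1, 1 of 18 H2b, 0 of 10 H3 and 1 of 13 H4 members. For 15 of the 16 H2a members the other gene is itself listed in the tables, and 15 of these 17 listed names stood at 0 in all 3 populations. The kit does not keep the strand, so reads of a gene and of one on the other strand cannot be told apart. Hist1h1e and Hist1h2be overlap on the same strand. Nearness in sequence matters too: 10 members share at least 80% of their 50-base words with 1 other member, 6 of them H2a, and 28 of 63 share more than 50% of them with other members.

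The clearest response was a rise of histone RNA in CD8 T cells after the combination. By the authors' deposited table, 40 of 60 tested members were higher and 0 lower, where 7.47% of 15115 genes were called in either direction and 4.51% were higher. Fold changes of the 40 ran from 1.38 to 1.95. The median over 63 members was 0.60 on the log2 scale, against -0.03 over all genes tested. The 3 members without a test were Hist1h1t, Hist2h2ab and Hist3h2bb-ps. With p-values rescaled to an empirical null, 19 members passed, 13 H2a and 6 H3. Leaving out the 10 near-identical copies, 32 of 50 were higher.

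**Figure D2:**
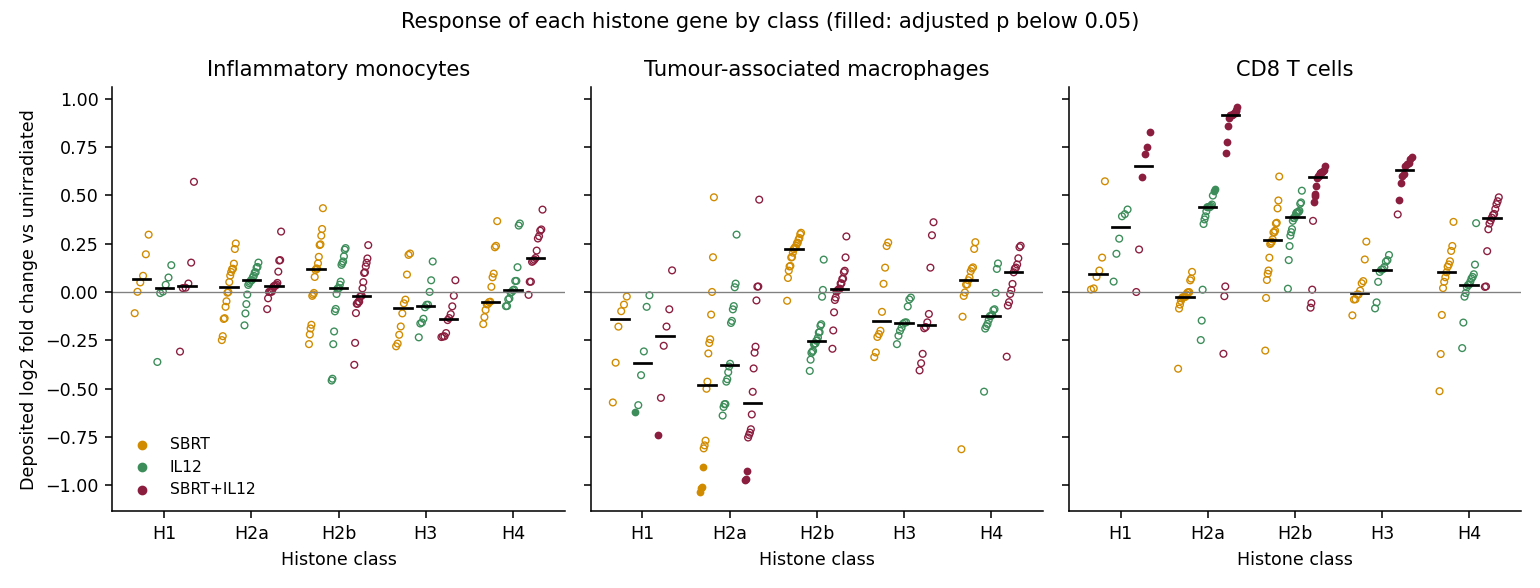
Deposited log2 fold change against unirradiated tumours for each histone gene, by class, in 3 populations; filled points had an adjusted p below 0.05, open points did not, and black bars are class medians. In CD8 T cells the combination medians run from 0.38 (H4) to 0.91 (H2a); in macrophages the H2a medians lie at -0.48 (SBRT) and -0.58 (combination).

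H2a genes rose most. In the authors' deposited table for the CD8 combination 13 of 15 tested H2a members were higher, all 13 from the Hist1 cluster and all between 0.72 and 0.96 on the log2 scale. Hist1h2ai had the smallest adjusted p: its implied level was 393 counts in unirradiated, 422 in SBRT, 564 in IL12 and 744 in combination libraries, a deposited log2 fold change of 0.92 (SE 0.13, adjusted p = 1.6e-09) for the combination. The SBRT level lay close to the unirradiated one, and the IL12 level between it and the combination. Hist1h2aj, the pseudogene that shares 93.1% of its 50-base words with Hist1h2ai, ran in parallel, with implied levels of 339, 356, 491 and 651 counts and a deposited log2 fold change of 0.94 (SE 0.15, adjusted p = 7.5e-08). The most abundant gene, Hist1h2ap, had implied levels of 11505 unirradiated, 11293 SBRT, 15600 IL12 and 21687 combination counts, and a deposited log2 fold change of 0.91 (SE 0.16, adjusted p = 4.6e-06). Hist1h2an showed the largest deposited log2 fold change of the class, 0.96 (SE 0.17, adjusted p = 1.85e-06). The other called H2a genes were Hist1h2ah (0.94), Hist1h2ad (0.93), Hist1h2af (0.93), Hist1h2ag (0.92), Hist1h2ao (0.92), Hist1h2ak (0.90), Hist1h2ac (0.86), Hist1h2ab (0.77) and Hist1h2ae (0.72), with adjusted p from 1.49e-06 to 0.000403. The H2a members outside the Hist1 cluster did not share this: Hist2h2ac stood at 0.03 (SE 0.23) and Hist3h2a at -0.32 (SE 0.21, adjusted p = 0.43).

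H2b and H3 genes, the partners of H2a and H4 in the nucleosome core, also rose. In the same deposited table, 14 of 17 tested H2b members were higher, with log2 fold changes from 0.47 to 0.65. Hist1h2bk had implied levels of 533 unirradiated and 837 combination counts, a deposited log2 fold change of 0.65 (SE 0.16, adjusted p = 0.0014), and Hist1h2bj 617 and 951 counts, 0.62 (SE 0.15, adjusted p = 0.0015). The near-identical Hist1h2bq and Hist1h2br both stood at 0.62. The H2b members tested and not called were Hist1h2bf (0.37), Hist2h2be (-0.08) and Hist3h2ba (-0.06). Of 10 H3 members 9 were higher, from 0.48 to 0.70. Hist1h3h had implied levels of 515 unirradiated, 510 SBRT, 553 IL12 and 836 combination counts, a deposited log2 fold change of 0.70 (SE 0.13, adjusted p = 5.4e-06). For this gene the 3 other groups lay close together and the combination above them. Hist1h3c (0.69), Hist1h3i (0.67), Hist1h3b (0.66), Hist1h3d (0.65), Hist1h3a (0.61) and Hist1h3f (0.48) were called too, and Hist1h3e (0.40, adjusted p = 0.139) was not. Hist2h3c2 was the only member of the Hist2, Hist3 or Hist4 clusters called in any of the 9 deposited tables, with 0.56 (SE 0.15, adjusted p = 0.0050) for the CD8 combination.

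Of 5 tested linker histone genes 4 rose. In the deposited table for the CD8 combination Hist1h1b stood at 0.83 (SE 0.22, adjusted p = 0.0057), Hist1h1a at 0.75 (SE 0.23, adjusted p = 0.020), Hist1h1d at 0.71 (SE 0.17, adjusted p = 0.0013) and Hist1h1e at 0.60 (SE 0.17, adjusted p = 0.010). Hist1h1c, a linker histone that is also made outside S phase, had a deposited log2 fold change of 0.22 (SE 0.16, adjusted p = 0.50), with implied levels of 886 unirradiated and 1032 combination counts. Hist1h1t had no test.

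No H4 member was called by the deposited adjusted p in the CD8 combination, although all 13 fold changes were above 0 and 7 had an unadjusted p below 0.05. Hist1h4d, the most abundant H4 gene in CD8 T cells, came nearest, with implied levels of 2224 unirradiated, 1558 SBRT, 2847 IL12 and 3123 combination counts and a deposited log2 fold change of 0.49 (SE 0.18, adjusted p = 0.077). Hist1h4m stood at 0.38 (SE 0.19, adjusted p = 0.25) and Hist4h4 at 0.03 (SE 0.24). The median was 0.38 for H4, 0.59 for H2b, 0.63 for H3, 0.65 for H1 and 0.91 for H2a; these classes share libraries, and the difference between them was not tested.

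**Figure D3:**
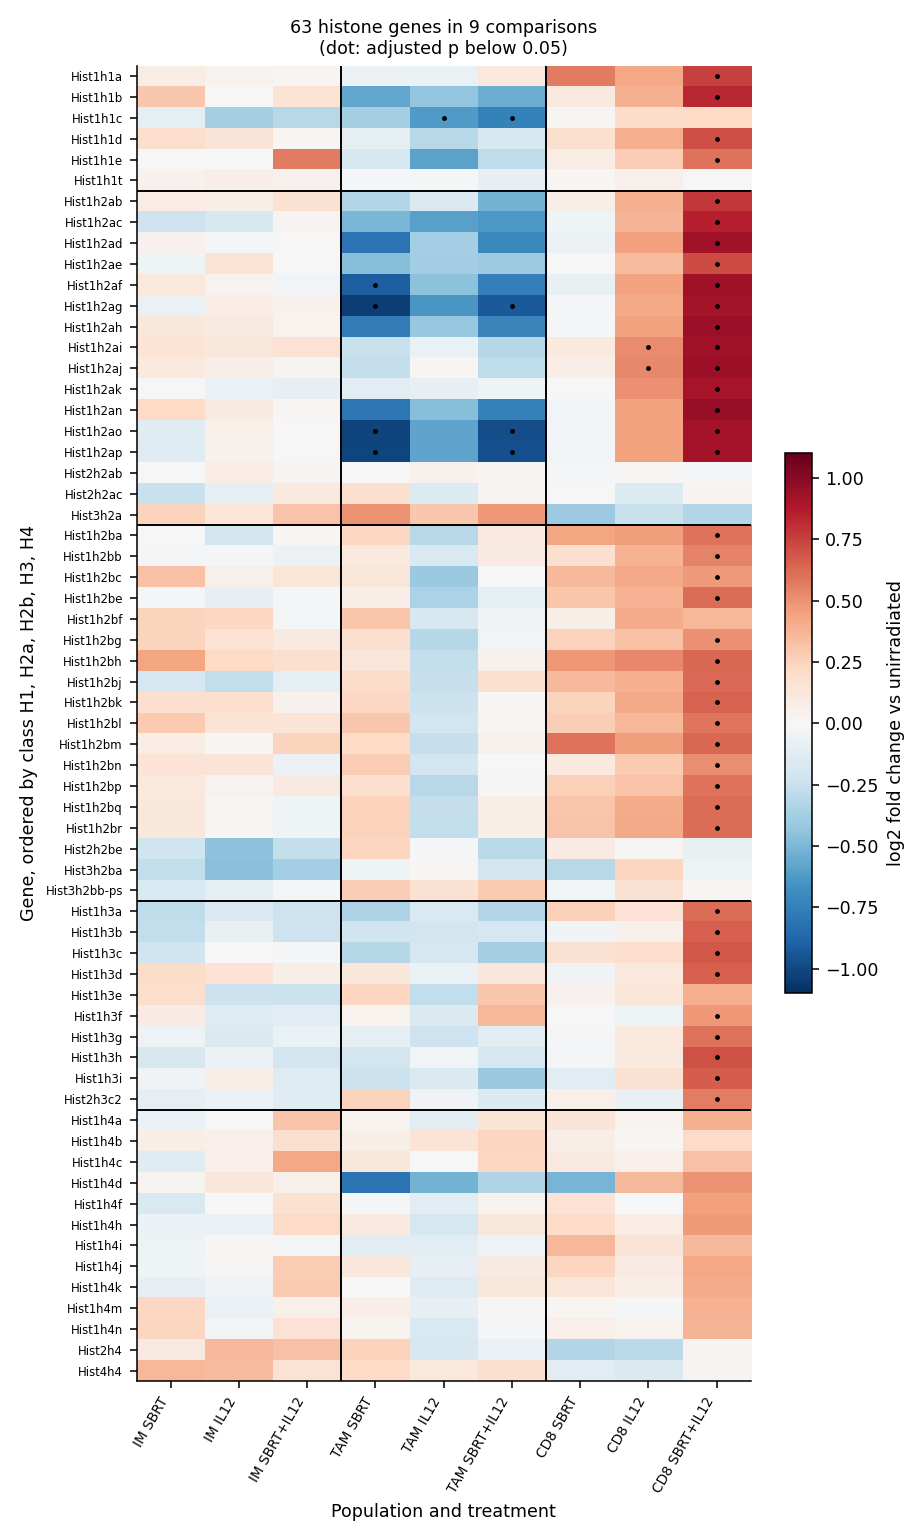
Deposited log2 fold change against unirradiated (colour) of 63 histone genes (rows, by class) in 9 comparisons (columns); a dot marks an adjusted p below 0.05. The CD8 SBRT+IL12 column holds 40 of the 51 dots, none of them in the H4 rows.

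Single treatments gave little in CD8 T cells. For IL12 the authors' deposited table called 2 of 59 tested members, both higher, where 2.52% of 13876 genes were called and 1.48% were higher: Hist1h2ai at 0.52 (SE 0.13, adjusted p = 0.010) and Hist1h2aj at 0.53 (SE 0.15, adjusted p = 0.021). With an empirical null neither passed, neither remains among the members without near-identical copies, and at an adjusted p below 0.1 the count was 4. Below the threshold, 55 of 63 fold changes were above 0 and 29 members had an unadjusted p below 0.05. The median was 0.44 for H2a and 0.39 for H2b, against 0.12 for H3 and 0.04 for H4. For SBRT the deposited table called 0 of 61 tested members, where 0.471% of 16359 genes were called, and 9 members had an unadjusted p below 0.05. There the H2b median was 0.27 and the H2a median -0.02. By Wald statistic, the members farthest from 0 on the high side after SBRT were Hist1h2bm (0.60, adjusted p = 0.19) and Hist1h1a (0.57, adjusted p = 0.27). On the low side they were Hist1h4d (-0.51, adjusted p = 0.19) and Hist3h2a (-0.40, adjusted p = 0.49). On the low side after IL12 were Hist2h4 (-0.29, adjusted p = 0.63) and Hist3h2a (-0.25, adjusted p = 0.65).

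The combination was then set against each single treatment. A normal test was made of the difference between deposited effects that share their control libraries, adjusted over all genes. It left out the covariance through these shared controls, which makes it conservative. Against SBRT, 6 of 63 members were higher, all H2a, where 0.0755% of 33127 genes were called and 0.0664% were higher; 25 members had an unadjusted p below 0.05. The 6 were Hist1h2ai (difference 0.82, SE 0.19, adjusted p = 0.026), Hist1h2ad, Hist1h2af, Hist1h2ah, Hist1h2aj and Hist1h2an. For the last 5 the adjusted p was 0.044 each, with differences of 0.99, 1.01, 0.95, 0.87 and 0.99. Leaving the shared control variance out of the error, 22 members passed (13 H2a, 8 H3 and 1 H4), where 1.39% of genes were called. Over genes with a level of at least 10 there were 12 (0.232%). Against IL12 the normal test called 0 members, where 0.00302% of genes were called, with 18 members at an unadjusted p below 0.05 and 5 called, all H3, once the control variance was left out (0.16% of genes). For SBRT minus IL12 it called 0, where 0.0211% of genes were called, with 9 at an unadjusted p below 0.05; 1 member, Hist1h4d, was lower with the control variance left out (0.519% of genes). The response to the combination thus exceeded that to SBRT for 6 H2a genes by the conservative main test. Against IL12 that test called 0 members, and 5 H3 genes were called only with the control variance left out.

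In macrophages 4 H2a genes and 1 linker histone gene fell. After SBRT the authors' deposited table called 4 of 59 tested members, all H2a and all lower, where 2.08% of 18436 genes were called and 1.15% were lower. Hist1h2ag had implied levels of 810 unirradiated, 395 SBRT, 520 IL12 and 426 combination counts, a deposited log2 fold change of -1.04 (SE 0.26, adjusted p = 0.0058) for SBRT. Its unirradiated level lay above all 3 treated ones. Hist1h2ao and the near-identical Hist1h2ap both stood at -1.01 (SE 0.25, adjusted p = 0.0060 and 0.0065), and Hist1h2af at -0.91 (SE 0.27, adjusted p = 0.0385). The median of H2a was -0.48, against 0.22 for H2b and 0.00 over all genes tested. All 13 H2a genes of the Hist1 cluster had a fold change below 0, while 17 of 18 H2b genes were above 0 and none was called. Hist1h4d was the H4 gene that went with H2a (-0.81, adjusted p = 0.0655). Hist3h2a, an H2a gene outside the Hist1 cluster, stood at 0.49 (SE 0.21, adjusted p = 0.32). Unirradiated and SBRT macrophages had 2 libraries each.

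After the combination the deposited table for macrophages called 4 of 58 tested members, all lower, where 4.21% of 17224 genes were called and 1.97% were lower. These were Hist1h1c, Hist1h2ag (-0.93, SE 0.26, adjusted p = 0.013), Hist1h2ao (-0.97, SE 0.25, adjusted p = 0.0062) and Hist1h2ap (-0.97, SE 0.25, adjusted p = 0.0066). Hist1h2af, called after SBRT, stood at -0.75 (adjusted p = 0.098). Without the near-identical copies 2 members remained called after SBRT and 2 after the combination, since Hist1h2ao and Hist1h2ap both drop out. After IL12 alone 1 of 60 tested members was called, where 0.935% of 19042 genes were called and 0.284% were lower: Hist1h1c, lower. Implied levels of Hist1h1c were 1529 unirradiated, 1187 SBRT, 994 IL12 and 914 combination counts, with all 3 treated groups below the unirradiated one. Its deposited log2 fold changes were -0.37 (SE 0.16, adjusted p = 0.30) for SBRT, -0.62 (SE 0.14, adjusted p = 0.0046) for IL12 and -0.74 (SE 0.16, adjusted p = 0.00032) for the combination. With IL12 alone, 57 of 63 members had a fold change below 0, with a median of -0.18; Hist1h2ag stood at -0.64 (adjusted p = 0.32). The high side was held by Hist3h2a, at 0.30 after IL12 and 0.48 after the combination, and by its pair partner Hist3h2bb-ps, at 0.17 and 0.29, none of them called.

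Between treatments in macrophages, the normal test of the difference of effects called 0 members for the combination minus SBRT, where 0.00309% of genes were called, 0 for the combination minus IL12 (0.0741%) and 0 for SBRT minus IL12 (0.0896%). No member had an unadjusted p below 0.05 in these 3 tests. With the control variance left out, 2, 3 and 10 members did, and again 0 were called in each (0.0618%, 0.562% and 0.596% of genes).

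Inflammatory monocytes gave no call. By the deposited adjusted p of DESeq2, 0 of 58 tested members were called after SBRT (0.519% of 19273 genes), 0 of 56 after IL12 (3.24% of 16829) and 0 of 58 after the combination (6.72% of 18660). Unadjusted p-values below 0.05 were held by 2, 2 and 0 members. By Wald statistic, the farthest from 0 after SBRT were Hist1h2bh (0.43, SE 0.22) and Hist1h2bc (0.33, SE 0.13, adjusted p = 0.46). After IL12 they were Hist3h2ba (-0.46) and Hist2h2be (-0.45), and after the combination Hist1h4c (0.43, SE 0.23, adjusted p = 0.33). On the opposite side stood Hist1h3a (-0.28) and Hist1h3b (-0.27) after SBRT, and Hist2h4 (0.35) and Hist4h4 (0.34) after IL12. After the combination Hist2h4 (0.32) came next on the high side, with Hist3h2ba (-0.38) and Hist1h1c (-0.31) on the low side. By fold change alone, Hist4h4 after SBRT (0.37) lay farther from 0 than Hist1h2bc. After the combination H4 genes had the highest class median, 0.18, with 12 of 13 above 0, and H3 the lowest, -0.14, with 9 of 10 below 0. Hist1h1e, with 0.57 after the combination and no p-value, rests on the row marked above for an extreme count. The normal test between treatments also called 0 members in monocytes: 0.204% of genes were called for the combination minus SBRT, 0% for the combination minus IL12 and 0.0244% for SBRT minus IL12, and no member had an unadjusted p below 0.05. With the control variance left out 0 were called as well (1.08%, 0.0518% and 0.317% of genes), with 1, 0 and 1 members at an unadjusted p below 0.05.

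Whether the populations differed in their response was tested on the difference of deposited effects, the populations having separate libraries. For the combination, 16 of 63 members responded lower in macrophages than in CD8 T cells, where 2.43% of 29690 genes were called and 1.53% were lower. They were 12 H2a, 2 H1 and 2 H3 genes. Hist1h2ao differed by -1.88 (SE 0.30, adjusted p = 2.9e-07), Hist1h2ag by -1.83 (SE 0.30, adjusted p = 1e-06) and Hist1h1b by -1.36 (SE 0.34, adjusted p = 0.0068). Hist1h1c, which fell in macrophages and was not called in CD8 T cells, differed by -0.96 (SE 0.23, adjusted p = 0.0026). The other H2a genes were Hist1h2ap (-1.88), Hist1h2an (-1.69), Hist1h2af (-1.66), Hist1h2ah (-1.66), Hist1h2ad (-1.63), Hist1h2ac (-1.49), Hist1h2ab (-1.29), Hist1h2ai (-1.24), Hist1h2aj (-1.23) and Hist1h2ae (-1.11), with adjusted p up to 0.0225. The H3 genes were Hist1h3c (-1.06, adjusted p = 0.023) and Hist1h3i (-1.07, adjusted p = 0.026). No H2b or H4 member was called.

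For the combination, 10 of 62 members responded lower in monocytes than in CD8 T cells, where 1.89% of 30055 genes were called and 0.838% were lower. They were 8 H2a and 2 H3 genes, led by Hist1h2ak (-0.99, SE 0.26, adjusted p = 0.011) and Hist1h2ao (-0.91, SE 0.26, adjusted p = 0.025), with Hist1h3h (-0.91, SE 0.26, adjusted p = 0.034) and Hist1h3b (-0.89, SE 0.26, adjusted p = 0.042). The rest were Hist1h2af (-0.96), Hist1h2an (-0.94), Hist1h2ad (-0.92), Hist1h2aj (-0.91), Hist1h2ap (-0.91) and Hist1h2ag (-0.87). Between monocytes and macrophages 0 members differed after the combination (0.917% of genes called), with 10 at an unadjusted p below 0.05 and the smallest adjusted p for Hist1h2ao, 0.15.

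For SBRT alone 0 members differed between monocytes and macrophages (0.263% of genes), 0 between monocytes and CD8 T cells (0.02%) and 0 between macrophages and CD8 T cells (0.643%), with 9, 4 and 11 members at an unadjusted p below 0.05. For IL12 alone the normal test gave 0 for monocytes against macrophages (0.0598%), 0 for monocytes against CD8 T cells (0.466%) and 0 for macrophages against CD8 T cells (0.195%), with 4, 7 and 27 members at an unadjusted p below 0.05. Closest was Hist1h1c, lower in macrophages than in CD8 T cells by 0.87 (difference -0.87, SE 0.23, adjusted p = 0.053). Over genes with a level of at least 10 it was called (0.415% of genes).

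The 13 head-to-head pairs let H2a and H2b be set side by side within 1 promoter region. The H2a gene was the more abundant one in 11 pairs in CD8 T cells but in 4 pairs in macrophages and 5 in monocytes, with median H2a over H2b level ratios of 2.97, 0.506 and 0.603. In macrophages after SBRT the H2a gene had the lower fold change in 12 of 13 pairs, with a median difference of -0.64 on the log2 scale. The widest was Hist1h2ao at -1.01 beside Hist1h2bq at 0.26. For Hist1h2ag and Hist1h2bj, whose shared stretch is printed above, the deposited values were -1.04 and 0.20. For Hist1h2ai and Hist1h2bl, the other pair printed above, they were -0.24 and 0.30. After the combination in macrophages the H2a gene was lower in 11 of 13. In CD8 T cells the order depended on the treatment: after SBRT the H2a gene had the lower fold change in 13 of 13 pairs (median difference -0.29), and after the combination the higher one in 12 of 13 (0.30). The exception was Hist3h2a, at -0.32 beside Hist3h2bb-ps at 0.01. These are counts of genes that share libraries and may share reads, and the difference within pairs was not tested.

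**Figure D4:**
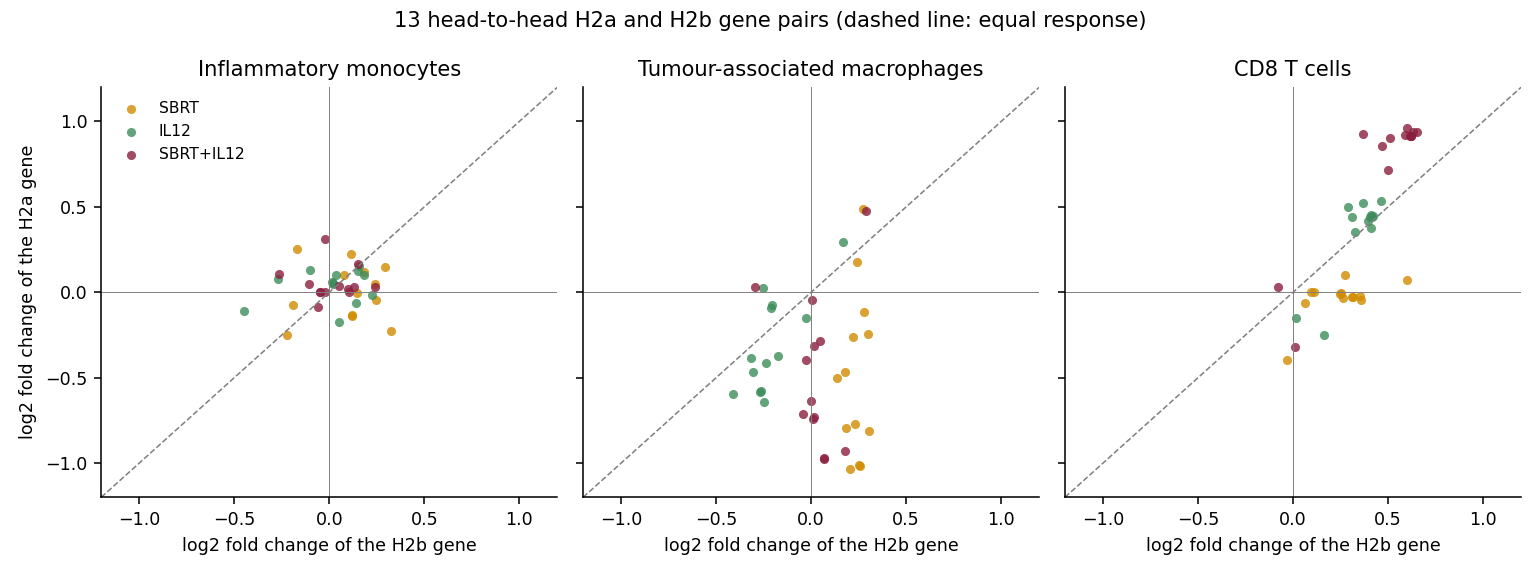
Deposited log2 fold change of the H2a gene (vertical) against that of its head-to-head H2b gene (horizontal) for 13 pairs, by population and treatment; the dashed line marks equal response. In macrophages 12 of 13 SBRT points lie below the line, and in CD8 T cells 12 of 13 combination points lie above it.

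Factors that make or destroy histone mRNA were called most in the CD8 combination. Of 24 measured genes of histone mRNA synthesis, processing and turnover, 23 were tested there and 7 were higher and 0 lower in the authors' deposited table, with a median of 0.19, where 4.51% of all genes tested were higher. They included Ccne1, the cyclin that starts S phase with Cdk2 (0.67, SE 0.09, adjusted p = 9.4e-12), Eri1, the exonuclease that trims histone mRNA (0.41, adjusted p = 0.0059), Slbp (0.39, adjusted p = 0.012) and Casp8ap2, a scaffold of the histone locus body (0.30, adjusted p = 0.033). Npat, the histone gene activator at that body, stood at 0.08 (adjusted p = 0.86). Ccne1 was also higher in CD8 T cells after SBRT (0.52, adjusted p = 2.4e-05) and IL12 (0.33, adjusted p = 0.011), the 1 gene of 24 called in each, where 0.471% and 2.52% of all genes were called. In macrophages after the combination, where 4.21% of all genes were called, 4 of 24 were lower and 1 higher: E2f1 (-0.61), Ccne1 (-0.64), Ccne2 (-0.92) and Ncbp1 (-0.64) against Pou2f1, which encodes the octamer factor Oct-1 (0.81, adjusted p = 0.0082). None was called in macrophages after SBRT or IL12, and in monocytes Ccne1 alone was called, after the combination (0.63, adjusted p = 0.025). That was 1 of 24 genes, where 6.72% of all genes were called.

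Of 22 measured histone chaperone and nucleosome assembly genes, 8 were higher and 0 lower after the CD8 combination in the deposited table, against 4.51% higher over all genes. Chaf1a, a subunit of the factor that loads H3 and H4 onto new DNA, stood at 0.75 (SE 0.12, adjusted p = 1.5e-07), and Asf1b, which hands H3 and H4 to it, at 0.77 (adjusted p = 8.0e-06). Asf1b was lower in macrophages after SBRT (-0.81, adjusted p = 0.017) and after the combination (-0.94, adjusted p = 0.0014), while Daxx, a chaperone of the variant H3.3, was higher after IL12 (0.62) and the combination (0.58). Of the 22 genes, 1 was lower after SBRT and 1 higher after IL12 there, where 2.08% and 0.935% of all genes were called. After the combination 1 was lower and 1 higher, where 4.21% were called. In monocytes Hat1, a histone acetyltransferase, was higher after IL12 (0.49) and the combination (0.47), and Chaf1b after the combination (0.56). These were 1 and 2 of 22 genes, where 3.24% and 6.72% of all genes were called. Asf1b was the chaperone gene higher after IL12 in CD8 T cells (0.51), 1 of 22, where 1.48% of all genes were higher. Of 11 replication-independent histone variant genes 9 were tested in the CD8 combination and 1 was higher, H2afz (0.48, adjusted p = 0.00030), a share near the 7.47% called over all genes. H2afz was also the variant gene called higher after IL12 in CD8 T cells (0.42, adjusted p = 0.0099), and 2 were lower in macrophages after SBRT, H2afx (-0.70, adjusted p = 0.010) and Cenpa (-0.69, adjusted p = 0.043). The median of the variant genes in the CD8 combination was 0.14.

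Genes of DNA replication and of mitosis were also called in CD8 T cells and macrophages. Of 29 S-phase genes 27 were higher after the CD8 combination in the deposited table (median 0.69), where 4.51% of all genes were higher. Rrm2, the ribonucleotide reductase subunit, led them (1.13, adjusted p = 3.6e-12). All 18 mitosis genes were higher too (median 0.85), Mki67 among them (0.86, adjusted p = 1.9e-10). In macrophages 15 S-phase and 13 mitosis genes were lower after SBRT, where 1.15% of all genes were lower. After the combination 18 and 8 were lower, where 1.97% of all genes were. The S-phase medians were -0.72 and -0.81. Mcm5, a helicase subunit, stood at -1.12 (adjusted p = 9.6e-05) and -1.34 (adjusted p = 3.8e-07), and Ccna2, the cyclin of S phase and mitotic entry, at -1.18 and -1.14. The macrophage H2a medians of -0.48 and -0.58 had the sign of these lists, and the H2b medians of 0.22 and 0.02 did not. Mki67 itself stood at -0.01 and -0.28 in macrophages and was not called. After IL12 in CD8 T cells 9 S-phase and 15 mitosis genes were higher, beside 2 histone members, where 1.48% of all genes were higher. After SBRT 4 and 1 were, beside 0, where 0.471% of all genes were called. In monocytes 6 S-phase genes and 0 mitosis genes were higher after the combination, beside 0 histone members, where 6.72% of all genes were called. Gins2, a subunit of the replication helicase, stood at 1.13 there.

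**Figure D5:**
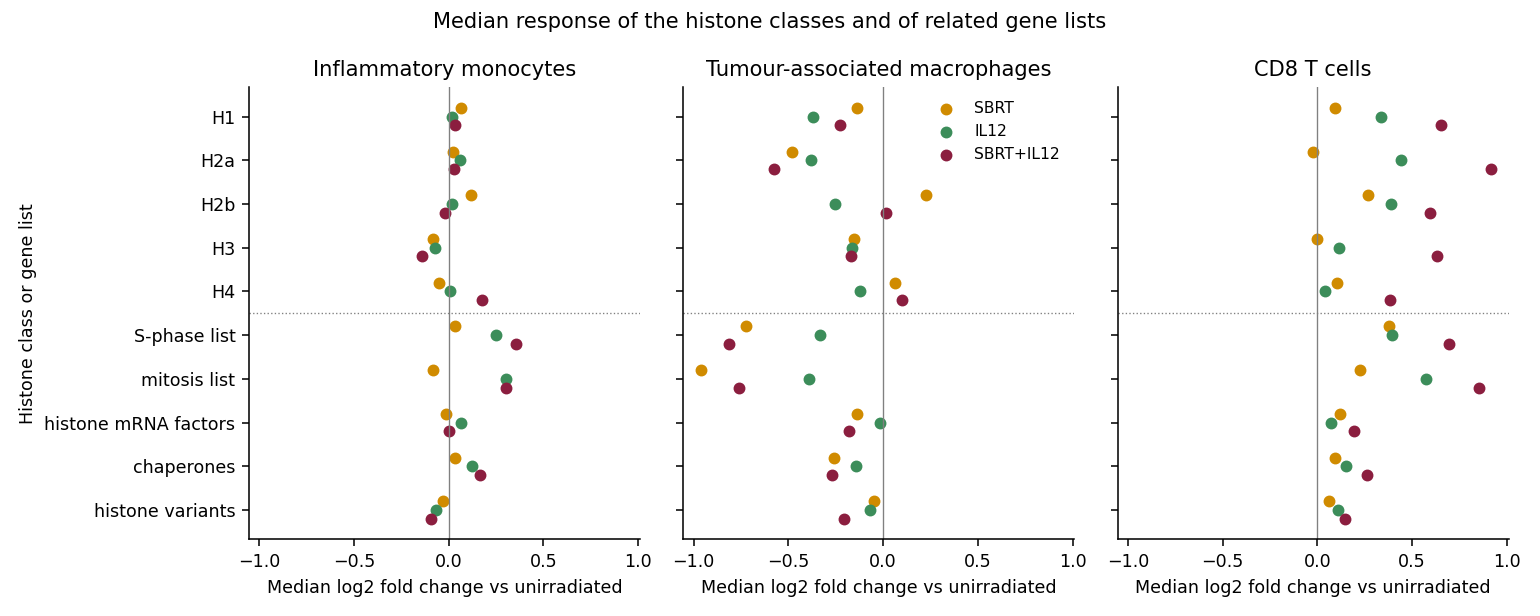
Median deposited log2 fold change of each histone class (above the dotted line) and of 5 gene lists (below it) in 9 comparisons; colours mark the treatment. In CD8 T cells all combination medians lie above 0, from 0.14 for histone variants to 0.91 for H2a; in macrophages the SBRT medians run from -0.96 for mitosis genes to 0.22 for H2b.

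Markers of other cells also moved. In CD8 T cells Pecam1 was lower after IL12 (-0.72), and 2 of 3 endothelial markers and 1 of 5 fibroblast markers were lower after the combination; the implied sum of the endothelial list was 1866 unirradiated, 1299 SBRT, 1182 IL12 and 1151 combination counts, that of the fibroblast list ran from 417 (combination) to 603 (unirradiated), and that of the 9 macrophage markers from 7938 (combination) to 13414 (SBRT). The 7 CD8 T cell markers summed to 229607 unirradiated and 206445 combination counts, with none called. In macrophages 2 of 5 fibroblast markers were lower after the combination, and Col1a1 was lower after SBRT (-1.47) and the combination (-1.09); the implied fibroblast sum was 2725 unirradiated, 1592 SBRT, 2162 IL12 and 1735 combination counts. Also lower in macrophages were Cd4 (-0.96) and the B cell marker Cd79b (-0.71) after SBRT, and the plasma cell marker Jchain after SBRT and the combination (-0.53 each). From unirradiated to SBRT the implied sums went to 0.528 of their value for the CD4 T cell list, 0.584 for fibroblast and 0.633 for B cell markers. Plasma cell markers went to 0.643 and tumour epithelial markers to 0.656, beside 0.623 for the H2a genes. The other marker lists ran from 0.794 (CD8 T cell) to 1.13 (endothelial). For the combination the same 5 lists stood at 0.594, 0.637, 0.785, 0.587 and 1.08, beside 0.635 for the H2a genes. In monocytes Pecam1 was higher after the combination (0.72). The part of these cells in the histone results was not tested. None of the defining markers of these lists was at 0.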

How the data were processed

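RNA of 33 sorted-cell libraries (poly(A)-selected, unstranded) was analysed from 9 tables deposited by the authors, each a DESeq2 comparison of a treatment with unirradiated tumours in 1 population. The submitters' processing notes list STAR 2.6.0c, Trimmomatic 0.36, Salmon, featureCounts, FastQC 0.11.8 and Subread, and the build GRCm38, without roles. The authors' DESeq2 version and annotation are not given in the sources used here. Per the file headers, the authors deposited for each gene a mean of normalised counts (used as a signal) and a log2 fold change. They also deposited a Wald statistic (used as a score) and a p-value with its adjusted p-value. The headers do not say that the fold change is shrunken, which was inferred from the implied SEs. Values of single libraries were not analysed here and the depth per library is unknown, so precision is given only by the implied SE.

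The members and gene lists were chosen with earlier results of these data known. Members were taken by name. Named genes were the called members (the 25 with the smallest adjusted p where more were called), the top 2 per class and kilobase in each population, the 2 of each direction with the largest Wald statistic per comparison, the lowest member, and up to 4 called genes per list, with Slbp, Npat, Casp8ap2 and Mki67; where this held many, a selection is printed, and other names were chosen after their values were seen. Implied group levels, SEs and differences of effects were computed with Python 3.11.15, pandas 2.3.3, numpy 2.4.6 and SciPy 1.17.1, and figures with matplotlib 3.10.9. The difference of 2 effects deposited by the authors from DESeq2 was tested by a normal test with Benjamini-Hochberg adjustment over all genes. On simulated data only the combination minus SBRT within a population was tried, with normal effects that were not shrunken and had known errors. The test between populations was not tried on simulated data. The SE implied by a shrunken fold change is approximate, most of all where the Wald statistic is near 0. Gene models and transcripts came from GENCODE M21, promoters from RefSeq. Alternatives were adjusted p thresholds of 0.1 and 0.01, an empirical null, a level of at least 10, the error without the control variance, leaving out near-identical copies (at least 80% of 50-base words shared), scaling to histone variant genes and, chosen after seeing the data, leaving out Hist1h1e.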

Additional observations from a re-analysis of the deposited data

Results flagged for a closer look

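The response to the combination differed between populations by a test of the difference itself. For macrophages against CD8 T cells 16 members were called, all with the lower response in macrophages. Over all genes 2.43% were called and 1.53% were lower. For monocytes against CD8 T cells 10 members were called, all with the lower response in monocytes. Over all genes 1.89% were called and 0.838% were lower. Both groups were mostly H2a genes of the Hist1 cluster, several of which may count the same reads.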

How the results depend on the processing

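The count of 40 members called after the CD8 combination became 19 with an empirical null. The 2 members called after IL12 in CD8 T cells became 4 at an adjusted p threshold of 0.1, 0 at 0.01 and 0 with an empirical null. The 6 members that differed between the combination and SBRT in CD8 T cells became 22 with the control variance removed and 12 over genes with a level of at least 10. With the control variance removed, 5 members differed between the combination and IL12 and 1 between SBRT and IL12 in CD8 T cells, where the main test called 0 in each. Over genes with a level of at least 10, 1 member differed in its IL12 response between macrophages and CD8 T cells. Scaled to the median level of the replication-independent histone variant genes, the per-kilobase H2b ratio of CD8 T cells to macrophages turned to 0.982 from 1.74. The H1 ratio of CD8 T cells to monocytes turned to 0.862 from 1.33 on that scale. Without Hist1h1e, an alternative chosen after seeing the data, the H1 ratio of macrophages to monocytes turned to 1.51 from 0.571. The cause of these changes was not tested. Leaving out libraries was not run, since values of single libraries were not analysed here. No paired analysis was possible because the tables hold comparisons and no values of single libraries. Depth per library is unknown, so what depth limits cannot be given.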
